A study of Mus musculus with 24 samples.

Results

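Tcf7l2, Lef1, Slc17a6, Prkcd, Rora, Fign and Zmat4 are 7 genes of the 36163 gene names on the mRNA array, and they were carried by 11 of its 55681 probesets. The set was chosen on measured values of these same arrays, as genes of the thalamus and hypothalamus (the diencephalon) that stood higher in pups given the larger morphine dose, with Fign and Zmat4 added because they moved with them. The differences between that dose group and the other groups are therefore given below as a description, without a test. Hippocampal RNA of 15 C57BL/6 mouse pups, killed on postnatal day 9, was hybridized to 1-colour Agilent arrays, with 1 pup per array and both hippocampi of a pup combined. All pups were labelled male, which the sex-linked transcripts of 1 array (MS5 replicate 9) did not match. Controls (Con, n = 5) were untreated, stayed with the dam and received 0 mg/kg morphine. From day 5 the MS2 pups (n = 5) received 2 mg/kg and the MS5 pups (n = 5) received 5 mg/kg morphine by injection under the skin, and both of these groups also went through separation from the dam and episodes of apnea in nitrogen followed by oxygen. Morphine and the stress protocol cannot be told apart in a comparison with Con, while MS5 and MS2 shared the stress and differed in dose.

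TCF7L2 and LEF1 are DNA-binding proteins of the TCF/LEF family, which carry an HMG box and switch on target genes when Wnt signalling lets beta-catenin enter the nucleus. In the brain Tcf7l2 and Lef1 are known as transcription factors of the developing thalamus. Slc17a6 encodes VGLUT2, the vesicular glutamate transporter that predominates in thalamic and other subcortical excitatory neurons, whereas most hippocampal principal neurons use VGLUT1. Prkcd (protein kinase C delta) and Rora (a nuclear receptor that binds DNA at ROR elements and takes part in the circadian clock) are also strongly expressed in thalamus. Fign encodes fidgetin, an ATPase that severs microtubules, and Zmat4 encodes a zinc finger protein of the matrin type. In bulk tissue a larger share of cells of a type and more RNA per cell cannot be told apart.

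All 11 probesets were well above background on all 15 arrays, and each had 1 spot per array. Tcf7l2 had 3 probesets, Lef1 and Prkcd had 2 each, and the other 4 genes had 1. Because the Tcf7l2 probesets gave different answers, the 2 that lie in coding exons are shown, together with the coding probe of Prkcd, the gene that went the other way. The probes are written 5′ to 3′ as the scanner files give them, with mm9 positions: the first Tcf7l2 probe is at chr19:55817272-55817331 on the plus strand in a 5′ coding exon, the second is at chr19:55994029-55994088 on the plus strand in the HMG box, and the Prkcd probe is at chr14:31411938-31411997 on the minus strand in the kinase-coding part.
Tcf7l2 A_55_P2143724: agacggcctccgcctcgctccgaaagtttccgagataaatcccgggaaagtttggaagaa
Tcf7l2 A_55_P2030160: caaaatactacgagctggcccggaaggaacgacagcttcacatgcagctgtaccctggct
Prkcd A_55_P2008071: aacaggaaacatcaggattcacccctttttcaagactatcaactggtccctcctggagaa

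Because most members moved together and 2 of them bind DNA through the TCF/LEF core, the 250 bases before their RefSeq starts (GRCm38.p6) were searched for that core, CTTTGA or its reverse complement TCAAAG. Starts were listed for 6 of the 7 genes, 12 starts in all, and Zmat4 had no entry. The core was found before 3 of the 12 starts, and 13.8% of all 32851 starts had a match. The half-site to which ROR proteins bind, AGGTCA or its reverse complement TGACCT, was before 0 of the 12 and before 14% of all starts. The 3 stretches with a match are printed 5′ to 3′ on the strand of the gene, with the core in capitals. A match describes these letters and does not show binding. The core begins 82 bases before the Fign start (chr2:64098039-64098288, minus strand), 139 bases before the upstream Prkcd start (chr14:30626209-30626458, minus strand), and 180 and 120 bases before the most downstream of the 4 Lef1 starts (chr3:131156044-131156293, plus strand).
Fign: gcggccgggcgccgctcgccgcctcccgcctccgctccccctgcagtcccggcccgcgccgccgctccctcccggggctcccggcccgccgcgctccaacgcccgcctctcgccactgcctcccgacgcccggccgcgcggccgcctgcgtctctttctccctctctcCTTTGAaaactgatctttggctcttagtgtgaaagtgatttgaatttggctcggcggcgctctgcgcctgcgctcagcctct
Prkcd: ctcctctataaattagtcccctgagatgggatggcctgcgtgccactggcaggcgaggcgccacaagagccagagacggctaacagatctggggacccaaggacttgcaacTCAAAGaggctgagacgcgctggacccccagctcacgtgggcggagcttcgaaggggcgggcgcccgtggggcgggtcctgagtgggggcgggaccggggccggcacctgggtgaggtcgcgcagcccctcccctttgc
Lef1: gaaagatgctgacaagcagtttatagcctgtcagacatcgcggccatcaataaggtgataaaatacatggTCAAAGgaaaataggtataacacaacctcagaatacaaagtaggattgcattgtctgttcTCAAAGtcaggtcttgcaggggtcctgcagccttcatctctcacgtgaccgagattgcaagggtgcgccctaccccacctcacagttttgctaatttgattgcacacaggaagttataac

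A few arrays stood apart before any comparison was made. On the array of MS2 replicate 4, 211 of the 55681 probesets were more than 1 (log2) above every other array and 300 were more than 1 below, against at most 35 above and at most 15 below on any other array. Its median correlation with the other arrays was 0.9898, against 0.9955 to 0.9975 for the rest. MS2 replicate 5 had a median spot signal of 51.0, against 100.4 to 127.9 on the other arrays. The array of MS5 replicate 9, labelled male like the rest, carried Xist at 11.34 against 5.89 to 6.08 elsewhere, and the Y-linked gene Ddx3y at 6.24 against 11.01 to 11.45; both genes were chosen after their values were seen. The arrays lay on 2 slides that each held all 3 groups. Member values are given without MS2 replicate 4, MS2 replicate 5 or MS5 replicate 9 where they bear on them.

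The main pattern was a single array. Of the 9 probesets for members other than Prkcd, 9 were highest of all 15 arrays on MS2 replicate 4, where 15.7% of all genes were highest. MS5 replicate 8 was at rank 2 or 3 for 9 of the 9 (4675 of all 36163 genes), and MS5 replicate 13 for 8 of the 9 (13.5% of all genes). High ranks of MS5 arrays were in part built in, because the members were chosen for standing higher in MS5. The label of the set did not hold for Prkcd, which was not higher in either treated group and was lowest of all arrays on MS2 replicate 4 at both of its probesets. Levels below are log2 intensities after normalization, which compare arrays for 1 probeset and not probesets with each other, and differences are log2 differences.

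**Figure D1:**
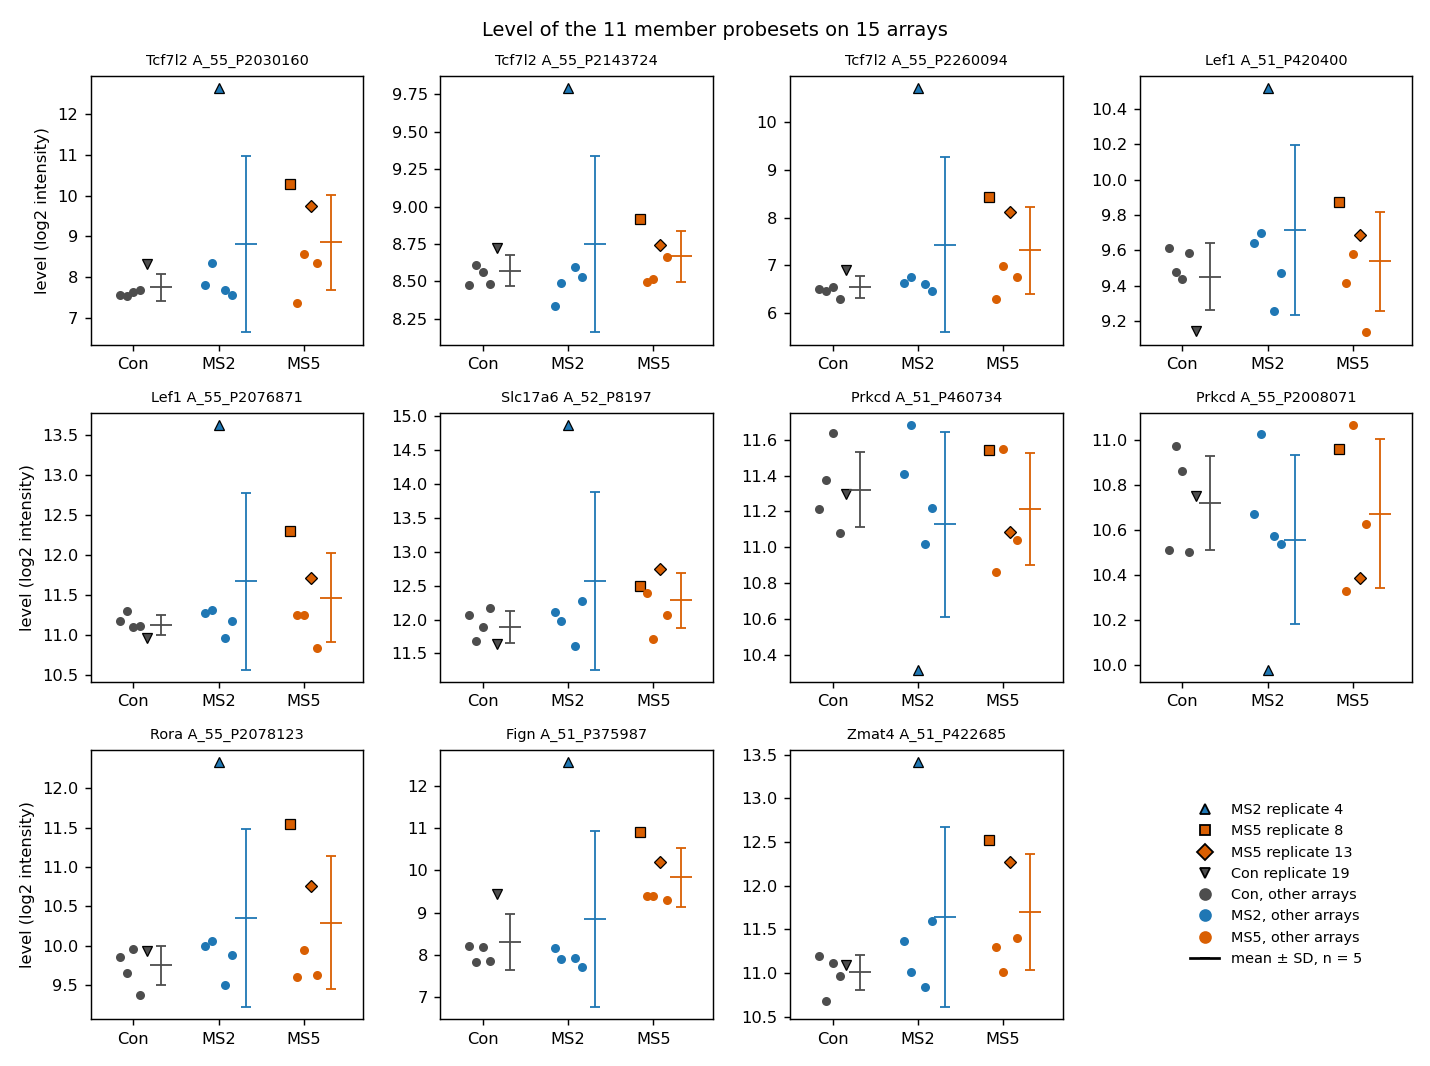
Level (log2 intensity) of each of the 11 member probesets on every array, in Con (grey), MS2 (blue) and MS5 (orange), 5 arrays each; horizontal marks and bars are the mean ± SD. MS2 replicate 4 (triangle) is the highest array in all panels except the 2 of Prkcd, where it is the lowest, and MS5 replicates 8 (square) and 13 (diamond) are at rank 2 or 3 in most of the others.

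The HMG box probeset of Tcf7l2 measured 7.57, 7.53, 7.64, 7.69 and 8.33 in Con (replicates 15 to 19), 7.79, 8.34, 12.64, 7.68 and 7.57 in MS2 (replicates 1, 3, 4, 5 and 7) and 10.29, 7.36, 8.56, 9.73 and 8.34 in MS5 (replicates 8, 9, 12, 13 and 14). One MS2 array was far above the rest, and 4 of the 5 MS5 arrays were above every control while MS5 replicate 9 was the lowest of all 15 arrays. The group means were 7.75 ± 0.33 (SD, n = 5) in Con, 8.80 ± 2.16 (SD, n = 5) in MS2 and 8.86 ± 1.17 (SD, n = 5) in MS5. The MS5 mean was thus 2.15-fold that of Con (SE 0.82 on the log2 scale), and 0.33 (log2) above it without MS5 replicates 8 and 13. The MS2 mean was 1.05 above Con with all arrays and 0.09 above it without MS2 replicate 4. The probeset at the 3′ end of the gene (A_55_P2260094, mm9 chr19:56006638-56006697) measured from 6.30 to 6.91 in Con, from 6.47 to 10.72 in MS2 and from 6.30 to 8.43 in MS5, with MS2 replicate 4 and MS5 replicates 8 and 13 again the 3 highest. Its group means were 6.55 in Con, 7.43 in MS2 and 7.32 in MS5, so that here MS2 had the highest mean.

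The 5′ coding probeset of Tcf7l2 ranked the same 3 arrays highest but moved far less. It measured 8.47 to 8.72 in Con, 8.34 to 9.79 in MS2 and 8.50 to 8.92 in MS5. On MS2 replicate 4 it was 1.22 above the control mean, where the HMG box probeset was 4.89 and the 3′ probeset 4.17 above. On MS5 replicate 8 the 3 differences were 0.34, 2.54 and 1.88. The probesets of the gene therefore disagreed in size, not in the order of the top arrays, and the rule that picks 1 probeset per gene picked the 5′ one, so the gene-level values of Tcf7l2 given further on are the smallest of the 3. Whether transcripts that differ in the exons they contain have a part in this was not tested.

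**Figure D2:**
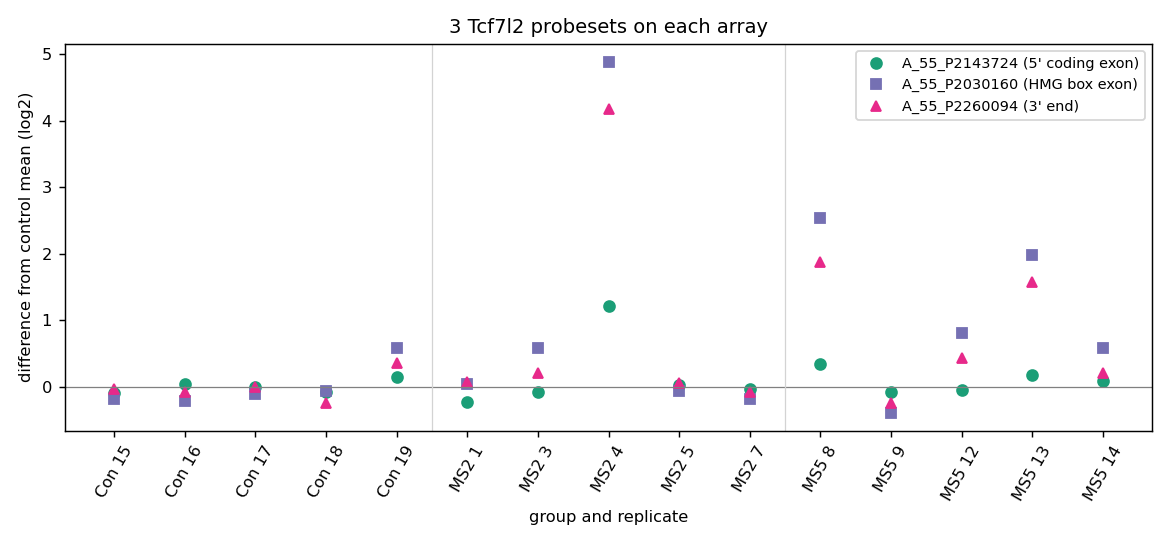
Difference of each array from the control mean (log2, y axis) for the 3 Tcf7l2 probesets, by group and replicate (x axis). On MS2 replicate 4 the HMG box and 3′ probesets stand 4.89 and 4.17 above the control mean and the 5′ coding probeset 1.22 above.

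Lef1, the TCF/LEF partner of Tcf7l2, had 2 probesets that shared the 2 highest arrays, MS2 replicate 4 and MS5 replicate 8, and the lowest, MS5 replicate 14, but differed in size. The one that spans a splice junction (A_51_P420400) measured 9.61, 9.48, 9.44, 9.58 and 9.14 in Con, 9.64, 9.70, 10.52, 9.26 and 9.47 in MS2 and 9.87, 9.41, 9.58, 9.69 and 9.14 in MS5, in the replicate order used for Tcf7l2. The groups overlapped except for MS2 replicate 4 and, by a small margin, MS5 replicate 8. The other probeset (A_55_P2076871) measured 10.96 to 11.29 in Con, 10.96 to 13.62 in MS2 and 10.83 to 12.30 in MS5. Its value on MS2 replicate 4 was 2.496 above the control mean, against 1.07 at the junction probeset. MS5 lay 0.09 and 0.34 above Con at the 2 probesets, and -0.08 and -0.02 from it without MS5 replicates 8 and 13.

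Slc17a6, the VGLUT2 gene, measured 12.07, 11.68, 11.89, 12.17 and 11.64 in Con, 12.12, 11.98, 14.87, 11.61 and 12.27 in MS2 and 12.50, 12.40, 11.71, 12.75 and 12.06 in MS5. MS2 replicate 4 was 2.98 above the control mean, and 3 MS5 arrays (replicates 8, 9 and 13) were above all controls. The MS5 mean was 0.39 above Con (1.31-fold, SE 0.46), and 0.17 above it without replicates 8 and 13. Its relatives split on MS2 replicate 4: Slc17a7 (VGLUT1, of hippocampal and cortical excitatory neurons) was at 9.38, the lowest of the 15 arrays and 3.04 below the control mean, while Slc17a8 (VGLUT3) was at 12.17, the highest and 2.61 above. Both were named after their values on that array were seen. Of the 6 other vesicular transporters, 0 were higher and 1 was lower in MS5 at an unadjusted p under 0.05, namely Slc18a1 (VMAT1), which was 0.24 lower (limma, unadjusted p = 0.00286, adjusted p = 1). Among all genes 1.5% were higher and 2.72% lower in MS5 by this rule, and the median difference over the transporters was 0.10.

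Prkcd measured 11.21, 11.38, 11.64, 11.08 and 11.30 in Con, 11.41, 11.68, 10.32, 11.02 and 11.22 in MS2 and 11.54, 10.86, 11.55, 11.08 and 11.04 in MS5 at A_51_P460734. The groups overlapped fully, and MS2 replicate 4 was the lowest array, 1.00 below the control mean. The coding probeset printed above measured 10.50 to 10.97 in Con, 9.98 to 11.02 in MS2 and 10.33 to 11.06 in MS5, again with MS2 replicate 4 lowest (0.74 below the control mean). The highest array was MS2 replicate 3 at the first probeset and MS5 replicate 12 at the coding one. The MS5 means were 0.11 and 0.05 below Con, or -0.02 and 0.04 from it without MS5 replicate 9. Of 7 other protein kinase C genes measured, 0 were higher or lower in MS5 at an unadjusted p under 0.05. Prkch, the eta isoform and the family member with the smallest p, was 0.46 higher in MS5 (limma, unadjusted p = 0.301, adjusted p = 1) and stood 1.96 above the control mean on MS2 replicate 4 and 1.88 above it on MS5 replicate 8.

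Rora measured 9.85, 9.64, 9.96, 9.37 and 9.93 in Con, 9.99, 10.05, 12.33, 9.49 and 9.88 in MS2 and 11.54, 9.60, 9.94, 10.76 and 9.62 in MS5. MS2 replicate 4 and MS5 replicates 8 and 13 were above all other arrays, and the remaining MS5 arrays lay within the control range. The MS5 mean was 0.54 above Con (1.46-fold, SE 0.48), and 0.03 below it (-0.03) without MS5 replicates 8 and 13. Within slide 1, which held MS5 replicates 8 and 13, the difference was 1.43, and within slide 2 it was -0.07. Of 13 other ROR and clock genes, 1 was higher and 1 lower in MS5 at an unadjusted p under 0.05. Npas2, which pairs with BMAL1 as CLOCK does, was 0.22 higher (limma, unadjusted p = 0.0388, adjusted p = 1).

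Fign was the member in which MS5 stood apart most evenly. It measured 8.21, 7.84, 8.19, 7.85 and 9.43 in Con, 8.15, 7.89, 12.57, 7.92 and 7.72 in MS2 and 10.91, 9.40, 9.38, 10.20 and 9.31 in MS5. All 5 MS5 arrays were above 4 of the 5 controls and above 4 of the 5 MS2 arrays, but Con replicate 19 was above 3 of them. The MS5 mean was 1.54 above Con (2.90-fold, SE 0.76) and 0.99 above MS2. The difference from Con was 1.06 without MS5 replicates 8 and 13, 1.65 without MS5 replicate 9 and 1.82 without Con replicate 19, and no other member kept a difference above 0.33 without replicates 8 and 13. Within slides it was 2.47 on slide 1 and 0.73 on slide 2, which held Con replicate 19. The paper also measured Fign by qPCR on the same samples, and by qPCR its level did not vary significantly with morphine dose. Of 6 other genes for microtubule-severing enzymes and their regulators, 0 were higher and 1 was lower in MS5 at an unadjusted p under 0.05, and 0 passed adjustment in limma.

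Zmat4 measured 11.20, 10.68, 11.11, 10.96 and 11.10 in Con, 11.37, 11.01, 13.41, 10.84 and 11.59 in MS2 and 12.53, 11.29, 11.01, 12.27 and 11.39 in MS5. All MS5 arrays but replicate 12 were above every control, replicates 9 and 14 by less than the SD among the controls (0.20). The MS5 mean was 0.69 above Con (1.61-fold, SE 0.41), and 0.22 above it without MS5 replicates 8 and 13. Of the 4 other Zmat genes, 0 were higher or lower in MS5 at an unadjusted p under 0.05, and their median difference was 0.01.

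Over the 7 genes, with 1 probeset each, the median difference of MS5 from Con was 0.39, beside a median of -0.001 over all genes. It was 0.36 without MS5 replicate 9, 0.58 within slide 1 and 0.07 within slide 2. Of the 11 probesets, 4 were more than 1.5-fold higher in MS5. In limma without array weights 0 were also at an unadjusted p under 0.05, against 0.0449% of all probesets (25). No such count of the members from another fit is given here, so this 0 is stated for that fit only. The paper, also with limma, reports Fign and Zmat4 as higher in MS5 at an unadjusted p of 0.05 or less. Its log2 differences were 1.52 and 0.67, and array weights gave 1.52 and 0.668 here. The paper does not say whether it used array weights. In 0 of the 11 were all MS5 arrays above all controls, as was the case for 0.305% of all probesets. Because the members were chosen on this contrast, these figures describe the set and support nothing.

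MS2 was compared with Con by test, since the members were chosen for standing higher in MS5. The test is not independent of that choice. It shares its control arrays with the MS5 contrast, and the members were also chosen on these arrays for standing high together. All 7 genes but Prkcd had a higher mean in MS2, and none of the 7 passed. The median difference over the 7 genes was 0.55 with all arrays, beside -0.005 over all genes, 0.06 without MS2 replicate 4 and 0.78 without MS2 replicate 5. Of the 11 probesets 5 were more than 1.5-fold higher, and 0 also had an unadjusted p under 0.05, as did 0.0162% of all probesets. In 0 of 11 were all MS2 arrays above all controls, against 0.309% of all probesets. The unadjusted limma p ran from 0.145 for Zmat4 (0.64 higher, SE 0.41) to 0.485 for Fign (0.55 higher, SE 0.76), and the adjusted p from 0.97 to 0.973. Two-sided exact permutation tests gave 0.159 for Zmat4 to 0.849 for Fign and for the 5′ Tcf7l2 probeset, where 252 assignments allow a smallest p of 0.00794.

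Without MS2 replicate 5 all differences kept their direction, and the smallest unadjusted limma p was 0.0688, for Zmat4 (0.84 higher, adjusted p = 0.762). Leaving out MS2 replicate 4 shrank every difference to 0.38 or less in size. Without it Slc17a6 was 0.11 above Con (SE 0.19), Rora 0.11 (SE 0.33) and Zmat4 0.19 (SE 0.27), and the HMG box probeset of Tcf7l2 was 0.09 (SE 0.45) above. Fign turned to 0.38 below Con (-0.38, SE 0.35), the 5′ Tcf7l2 probeset to -0.08, and Prkcd from -0.19 to 0.01. In limma the unadjusted p of the 11 probesets then ran from 0.292 to 0.95. Within slide 1, which did not hold that array, the median over the 7 genes was 0.08, and within slide 2, which did, it was 1.13.

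**Figure D3:**
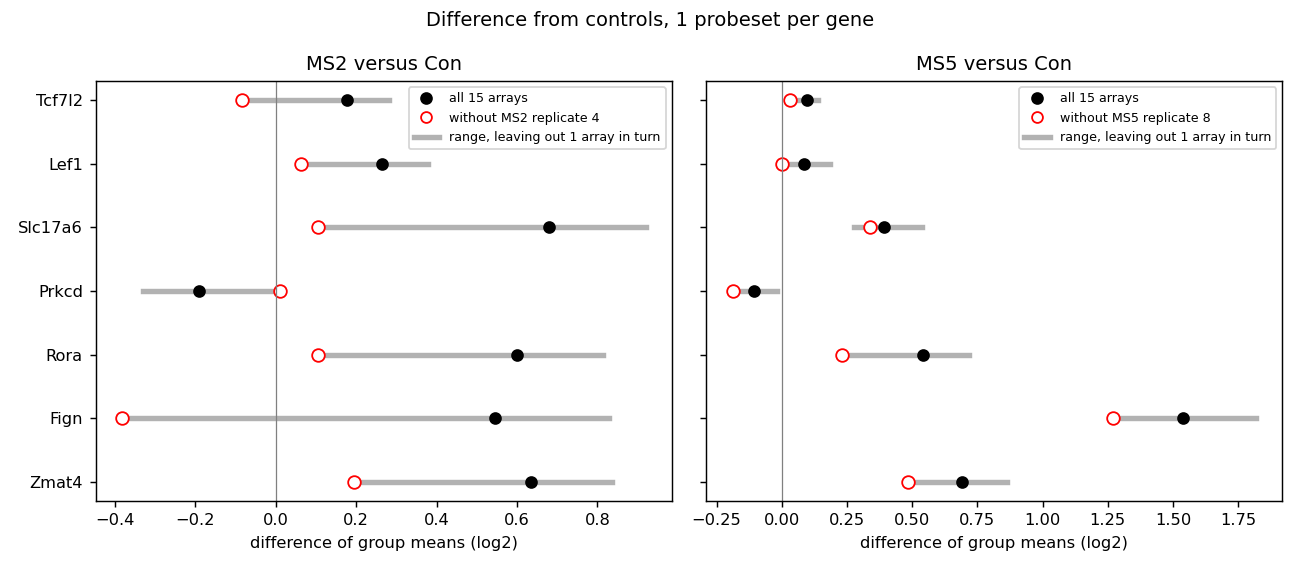
Difference of MS2 (left) and MS5 (right) from Con in log2 units (x axis) for the 7 genes, 1 probeset each. Black points use all 15 arrays, open red points leave out MS2 replicate 4 (left) or MS5 replicate 8 (right), and grey bars span the values with each array left out in turn. In MS2 the open points of all genes lie between -0.38 and 0.19, while Fign in MS5 stays at 1.27 without MS5 replicate 8.

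MS5 and MS2 shared the stress protocol and differed in dose. Fign was 0.99 higher in MS5 (1.99-fold, SE 0.76), and the other 10 probesets lay between 0.29 lower (-0.29, Slc17a6) and 0.12 higher (coding Prkcd probeset). The median over the 7 genes was -0.06, and 0.29 without MS2 replicate 4. These values are a description, because the MS5 arrays chose the members.

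Correlations between members were computed within groups, after subtracting each group's mean, over 15 arrays and 21 pairs of genes. The members were chosen on these arrays for standing high together, so the correlations are a description without a test. All 15 pairs without Prkcd were positive, and the closest was Tcf7l2 with Fign (r = 0.95, rho = 0.82), whose r was 0.76 without the 2 arrays farthest from the median of Tcf7l2. Next was Rora with Zmat4 (r = 0.94, rho = 0.79), with r = 0.79 without 2 arrays. Prkcd correlated negatively with each other member by Pearson's r, at -0.30 with Rora to -0.71 with Slc17a6. This rested on MS2 replicate 4. When that array was left out, only Slc17a6 stayed negative (-0.191), and r with the others ran from 0.133 with Zmat4 to 0.565 with Rora. Without MS2 replicate 4 Tcf7l2 with Fign was at 0.70 and Rora with Zmat4 at 0.84, while Tcf7l2 with Lef1 went from 0.71 to -0.02 and Tcf7l2 with Slc17a6 from 0.87 to 0.05. These values use 1 probeset per gene, the 5′ one of Tcf7l2 and the junction one of Lef1, which moved less than the others. They need not hold for the other probesets of these genes, whose correlations are not given here.

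Genes listed for thalamus and habenula followed MS2 replicate 4 and, in part, MS5 replicates 8 and 13. Of these 15 genes, which are not members, 14 were highest of all arrays on MS2 replicate 4, as were 15.7% of all genes. At an unadjusted p under 0.05 in limma, 0 of the 15 were higher or lower in MS5 or in MS2. Their summed level (log2) was 14.25 to 14.82 in Con, 14.35 to 16.21 in MS2 and 14.45 to 15.03 in MS5. The MS2 maximum was on replicate 4 and the MS5 maximum on replicate 8. On MS5 replicate 13 the sum was 14.77, inside the control range, while the mean of the list was 0.39 above the control mean, against at most 0.19 in Con. Olig3 was well above background on 0 arrays. Gbx2, a homeobox gene of the developing thalamus, was 3.57 above the control mean on MS2 replicate 4 and 1.39 and 1.36 above it on MS5 replicates 8 and 13. It was dim elsewhere, well above background on 4 of the 5 Con arrays and on 2 of the 5 MS2 arrays, so that these differences are less certain than those of the members. Foxp2, a forkhead factor, was 2.23, 1.40 and 0.47 above on the same 3 arrays. By contrast Pou4f1 (Brn3a, a habenular factor) was 3.99 above on MS2 replicate 4 and -0.01 and 0.62 from the control mean on MS5 replicates 8 and 13; it was picked after its values were seen. In MS5 as a whole Gbx2 was 0.92 higher (limma, unadjusted p = 0.143, adjusted p = 1), and the median over the 15 genes was 0.14.

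Hypothalamic genes were high on some of these arrays and on others as well. The mean of the list was 1.21 above the control mean on MS2 replicate 4, 0.67 on MS5 replicate 8 and 0.08 on MS5 replicate 13, but also 0.92 on MS5 replicate 14 and 0.56 on MS5 replicate 12. The medians on these arrays were 0.58, 0.11, -0.004, 0.57 and 0.15, so that the means rested on part of the list. On MS2 replicate 4, 6 of the 20 genes were highest of all arrays (15.7% of all genes) and 2 were lowest (16.4%). The lowest were Crh (-0.49 from the control mean) and Nkx2-1 (-0.55), both named after their values were seen. Of 20 listed, 4 were higher and 0 lower in MS5 at an unadjusted p under 0.05, and 0 passed adjustment; 1 was higher without MS5 replicate 8 and 1 without MS5 replicate 14, Sim1 in both cases. Trh (thyrotropin-releasing hormone) was 1.89 higher (unadjusted p = 0.0389), Avp (vasopressin) 2.53 (unadjusted p = 0.028) and Oxt (oxytocin) 1.79 (unadjusted p = 0.0214), with an adjusted p of 1 in limma for each. Sim1, a transcription factor of neurosecretory neurons, was well above background on only 1 array (MS5 replicate 8), so no fold is given for it. Trh followed the members' arrays in part. It was 3.57, 3.04 and 1.89 above the control mean (8.26) on MS2 replicate 4 and MS5 replicates 8 and 13. The highest of the other 12 arrays was at 11.08, above MS5 replicate 13. Avp and Oxt were 3.27 and 1.70 above on MS2 replicate 4 and 4.68 and 2.90 above on MS5 replicate 8, but -0.55 and -0.26 from the control mean on MS5 replicate 13. On MS2 replicate 4 both had rank 4 of the 15 arrays. Pmch (melanin-concentrating hormone) and Hcrt (orexin), picked after their values were seen, were 6.96 and 4.26 above on MS2 replicate 4 and at most 0.64 and 0.06 above on MS5 replicates 8 and 13; Pmch was well above background on 3 of the 5 Con arrays. The summed level of the list was 12.82 to 13.25 in Con, 12.90 to 15.05 in MS2 and 12.89 to 14.09 in MS5, and Otp was well above background on 0 arrays.

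Markers of hippocampal neurons went the other way on MS2 replicate 4 and, by much less, on MS5 replicate 8. All 11 genes listed, among them the cortical and hippocampal transcription factors Neurod2, Neurod6 and Emx1, were well above background on all 15 arrays, and 11 of 11 were lowest on MS2 replicate 4, where 16.4% of all genes were lowest. Their mean there was at -2.36 from the control mean. Neurod2 was at -3.64, and it was picked after its values were seen. On MS5 replicate 8 the mean of the list was at -0.43, outside the control range of -0.21 to 0.13. On the other arrays it lay inside that range, at -0.05 on MS5 replicate 13. Its summed level was 16.95 to 17.25 in Con, 14.82 to 17.28 in MS2 and 16.87 to 17.25 in MS5.

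Other cell types were mixed. Of 15 oligodendrocyte genes measured, 0 were higher or lower in either treated group at an unadjusted p under 0.05, but the mean of the list was 0.87 above the control mean on MS2 replicate 4, 0.98 on MS5 replicate 8, 0.43 on MS5 replicate 13 and 0.83 on Con replicate 19, the control array that was also high for Fign and Tcf7l2. Interneuron (10 genes) and astrocyte (8 genes) lists had 0 genes past that threshold in either group. Of 12 endothelial genes 0 were higher and 2 lower in MS5, or 1 lower without MS5 replicate 8. Of 11 choroid plexus genes 10 were lower in MS5 at that threshold, with a median difference of -1.29, and the mean of the list was lowest on MS5 replicates 14 (-3.14), 9 (-2.24) and 13 (-0.84), all below the lowest control (-0.50). Of the other arrays where the members were high, MS2 replicate 4 was at -0.44 and MS5 replicate 8 at -0.32, inside the control range. Without MS5 replicate 9 the number lower was 5 (median difference -1.08), and without MS5 replicate 14 it was 7 (-0.85). The part of any of these tissues or cell types in the members' values was not tested.

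**Figure D4:**
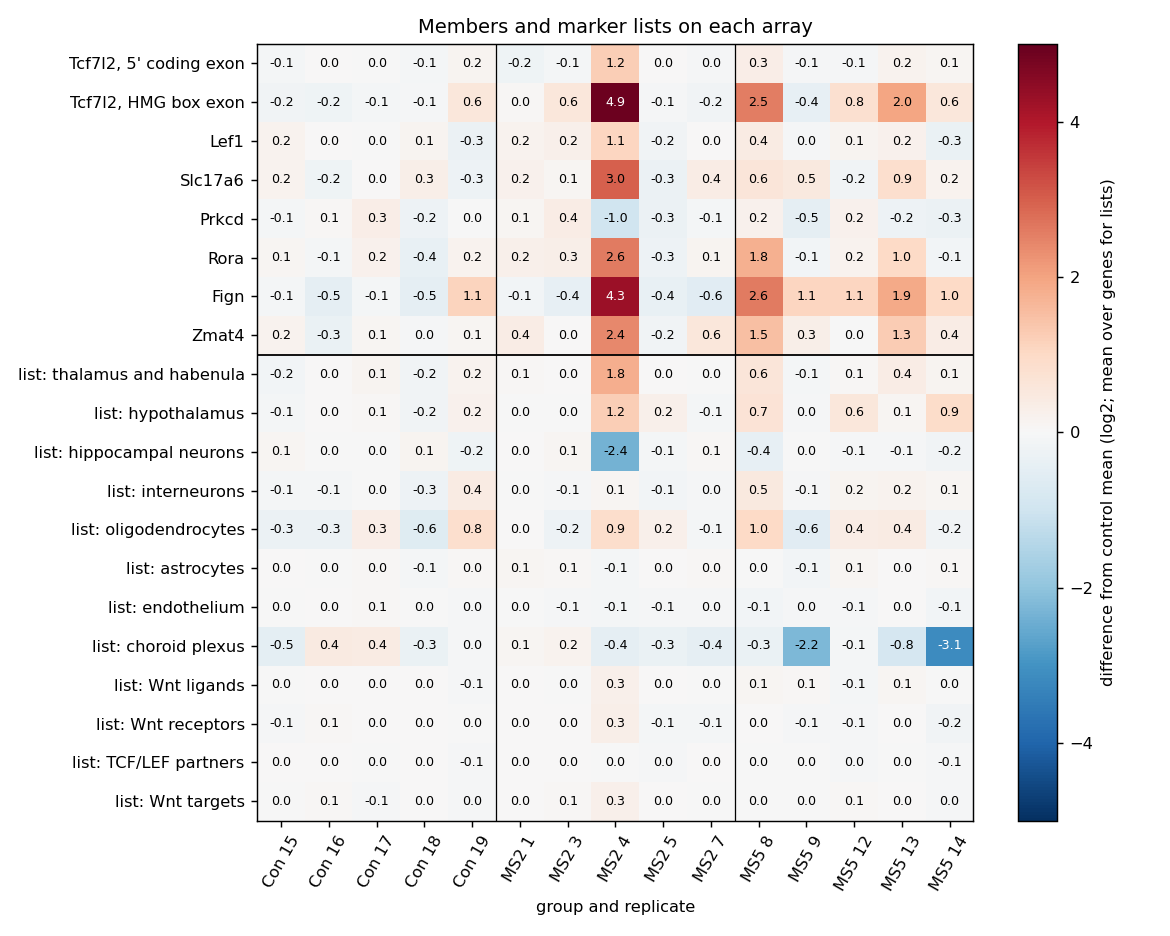
Difference of each array from the control mean (log2; for lists the mean over their genes), for 8 member probesets (top) and 12 lists of genes (bottom), with arrays in columns by group and replicate; red is higher and blue lower. The members except Prkcd, the thalamus and habenula list and the hypothalamus list are highest or nearly so on MS2 replicate 4, where the hippocampal neuron list is at -2.36 from the control mean; the choroid plexus list is low on MS5 replicates 14, 9 and 13.

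Wnt pathway genes did not share the members' group pattern as a set. Of 10 Wnt ligands, 14 nuclear partners and regulators of TCF/LEF proteins and 10 target genes, 0 were higher or lower in MS5 at an unadjusted p under 0.05. Of 12 receptors 0 were higher and 2 lower in MS5: Fzd7 by 0.38 (-0.38; limma, unadjusted p = 0.0103, adjusted p = 1) and Fzd4 by 0.28 (-0.28; unadjusted p = 0.0387, adjusted p = 1). The target gene Znrf3, which encodes a ligase that removes Wnt receptors, was 0.13 higher (unadjusted p = 0.0631, adjusted p = 1), and Tcf7, another TCF/LEF gene, 0.16 lower (-0.16; unadjusted p = 0.0557, adjusted p = 1). Median differences in MS5 were 0.002 for ligands, -0.01 for receptors, -0.05 for partners and 0.05 for targets. Single Wnt genes did follow the members' arrays: Wnt3 was 2.77, 1.29 and 0.97 above the control mean and Fzd10 was 2.97, 1.34 and 1.00 above it on MS2 replicate 4 and MS5 replicates 8 and 13. Fzd10 was picked after its values were seen, and Wnt3 is named as a gene most like the members. In MS2, 2 of the 184 genes on all 17 lists were higher and 2 lower at an unadjusted p under 0.05 (1.73% and 2.3% of all genes). In MS5, 5 were higher and 17 lower (1.5% and 2.72% of all genes), and 10 of those 17 were choroid plexus genes.

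The genes most like the members were sought among 20789 gene names that begin with a letter and whose probeset was well above background on all 15 arrays, by Pearson's r over the 15 group-centred arrays with the mean of the 7 scaled members, Prkcd included. Wnt3 was the most alike (r = 0.98), followed by Flt3 (0.97), Vipr2, a receptor for VIP and PACAP (0.97), a transcript without a symbol (0.97), Gckr (0.97), Pappa (0.97), Vil1 (0.96), Wnt9b (0.96), Fam19a4 (0.96) and Creg1 (0.95). The 10 differed in size on the high arrays: Gckr, the glucokinase regulator gene, was 2.94, 1.95 and 1.42 above the control mean on MS2 replicate 4 and MS5 replicates 8 and 13, and Creg1 1.00, 0.41 and 0.11. Genes with r above 0.9 numbered 105 with all arrays and 8 without MS2 replicate 4, and 5 of the 10 most alike were shared between both settings (Wnt3, Vipr2, Gckr, Vil1 and Wnt9b). These correlations describe 15 arrays of which 1 is far from the others.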

How the data were processed

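Hippocampal mRNA of 15 pups was analysed; the miR arrays of the same study were not used here. The authors deposited scanner files with the intensity of each spot, made with Agilent Feature Extraction 10.7.1.1 and without normalization between arrays, and log2 values after normexp background adjustment and quantile normalization. Flags for spots well above background came with the deposited scanner files and are other values than signals.

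Starting from the mean spot intensity and the median local background, normexp (offset 50) and quantile normalization over 62976 spots were applied, followed by log2. Without the 3671 control spots, averaging replicate spots gave 55681 probesets. Computed and deposited values differed by more than 0.01 at 432 probesets, none of them a member. Groups were taken from the labels and compared with limma 3.58.1 (R 4.3.3, with the package data.table, version 1.17.8) in 1 fit of 3 groups, and p-values were adjusted by Benjamini-Hochberg across every probeset. A two-sided exact permutation test was added for each member, and correlations were tested with 1e+05 permutations within groups. Separate pups are the replicates, and the number of arrays limits the precision.

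Named genes were all member probesets, 1 probeset per gene (named A_51 or A_52, otherwise the one with the highest mean level), up to 4 genes with the smallest p from each list, list genes more than 1.5-fold changed at an unadjusted p under 0.05, Avp, Oxt and Trh, and the 10 genes most like the members; others are said to have been picked after their values were seen. Some list genes are counted but not reported by name here. The members and the lists were chosen with earlier results of these data known. Promoters and gene names came from RefSeq tables. The alternatives were array weights, an offset of 0, the processed signal scaled to the 75th percentile, a filter on dim probesets, the slide as a block, each slide alone, the authors' log2 values, a fit of just 2 groups, gene-level means over probesets, and the omission of 1 array at a time. Leaving out MS5 replicates 8 and 13 together, repeating the search for like genes without MS2 replicate 4, and refitting single lists without 1 array, were chosen after seeing the data. The steps were tested on simulated data.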

Additional observations from a re-analysis of the deposited data

Results flagged for a closer look

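In 9 of 33 groups of 5 arrays (11 probesets in 3 groups), 1 array lay far from the other 4 by Dixon's test (critical value 0.71), which chance alone gives in about 1 in 20 groups; the 33 share arrays and genes, so the flags are not independent. MS2 replicate 4 accounts for 7 of the 9, all of them high: the Tcf7l2 probesets in the HMG box (12.64), at the 5′ end (9.79) and at the 3′ end (10.72), the second Lef1 probeset (13.62), Slc17a6 (14.87), Rora (12.33) and Fign (12.57). The other 2 are on Con replicate 19, for the HMG box probeset of Tcf7l2 (8.33) and Fign (9.43). Without Con replicate 19 the MS5 mean of Fign was 1.82 and that of the HMG box probeset 1.25 above Con. On both arrays the oligodendrocyte list was also above the control mean, by 0.87 on MS2 replicate 4 and 0.83 on Con replicate 19; its part in these values was not tested.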

How the results depend on the processing

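The count of member probesets past the threshold in MS2 versus Con was 0 under all 25 alternatives. Leaving out each array in turn, the median over the 7 genes ranged from 0.23 to 0.54 for MS5 versus Con, from 0.06 (without MS2 replicate 4) to 0.78 for MS2 versus Con and from -0.15 to 0.29 for MS5 versus MS2, which was -0.88 within slide 2. In MS2 versus Con, array weights, slide 1 alone and leaving out MS2 replicate 4 turned Tcf7l2 to -0.063, -0.056 and -0.083, Fign to -0.14, -0.16 and -0.38 and Prkcd to 0.021, 0.125 and 0.011. With 1 array left out, Tcf7l2 ranged from -0.083 to 0.281, Fign from -0.38 to 0.83 and Prkcd from -0.33 to 0.011. Pairs of members with an adjusted permutation p under 0.05, a count that supports nothing because the members were chosen for standing high together, numbered 10, ranged from 0 (without MS2 replicate 4) to 13 with arrays left out and were 14 with gene-level means over probesets. List genes higher in MS5 numbered 5 and ranged from 1 (without replicate 8) to 9 (without MS2 replicate 4) with arrays left out; they were 3 without Con replicate 16, Con replicate 18 or MS5 replicate 13, 37 within slide 1, 0 within slide 2 and 9 with only the 2 groups compared. Those lower numbered 17, ranged from 10 (without MS5 replicate 9) to 22 and were 10 within slide 2. In MS2 those higher numbered 2, ranged from 0 to 4, were 0 with an offset of 0, the processed signal or only 2 groups, and 4 within slide 2; those lower numbered 2, ranged from 2 to 5, and were 0 within slide 1 and 6 within slide 2. The cause of these shifts was not tested, beyond the fewer arrays in some settings. Averaging the probesets of a gene raised Tcf7l2 in MS5 from 0.10 to 0.66. No paired analysis was possible because the labels do not give the litter of a pup or the run of the experiment. The paper describes untreated control littermates in the home cage of treated pups, so pups of different groups may share a litter.

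All member probesets were flagged well above background, but the flag does not show that low signal had no effect. The 3′ probeset of Tcf7l2 was low, at 6.30 to 6.91 in Con. The difference of Fign between MS5 and Con depended on the background step. It was 1.54 in the main setting, 1.72 with an offset of 0 and 1.81 with the processed signal. The mm9 probe positions and the GRCm38.p6 promoters come from different builds and were not joined.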
